A study of Mus musculus with 32 samples.

Results

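The 9 genes described here belong to the extracellular matrix. The thrombospondins *Thbs1*, *Thbs2*, *Thbs3*, *Thbs4* and *Comp*, periostin (*Postn*), the tenascins *Tnc* and *Tnn* and fibronectin (*Fn1*) were followed across the cell types of mouse marrow cultures. They were chosen by gene symbol, all 9 were found among the 31053 genes of the count matrices, and the rule uses their names and not their values. The cultures are BMSC-OBs, bone marrow stromal cells of Diversity Outbred (DO) mice, a genetically varied outbred stock, that were taken from the femur and grown under osteogenic conditions until the matrix mineralized. Cells of 4 or 5 mice were combined in each of 16 pools (77 mice in all) and profiled by droplet single-cell RNA-seq (scRNA-seq) of transcript 3′ ends, and every library was sequenced in 2 runs. All pools received the same culture treatment, no control culture enters the comparisons, and ages and sexes were not used, so the comparisons are between cell types of the same pool.

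All 9 proteins are secreted into the matrix around the cell, and they are large and made of many domains. They are called matricellular proteins, except fibronectin, because they act mainly on how cells hold to and signal from the matrix, whereas fibronectin is a fibril on which other matrix is laid down. Cells read these proteins through integrins, CD36, CD47, syndecans and the receptor LRP1. In bone, periostin and tenascins are known from the periosteum and from mechanically loaded tissue, and thrombospondins from the control of collagen fibrils and of latent transforming growth factor beta.

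Cell types were set by marker genes, none of which is among the 9. Of 83906 kept cells, 47711 passed the gates of 7 classes, which are called by the names of the study with "-like" added. These were 9086 cells like late mesenchymal progenitors (LMP-like, contractile genes such as *Acta2* and *Tagln*), 3267 like osteoblast progenitors (OBP-like, *Sp7* and *Alpl*), 5444 and 6267 like the mature osteoblast populations (OB1-like, *Bglap*, and OB2-like, *Ndrg1* and *Slc2a1*), 4657 osteocyte-like (Ocy-like, *Dmp1* and *Phex*), 7780 like marrow adipogenic lineage progenitors (MALP-like, *Adipoq* and *Lpl*) and 11210 macrophage-like cells. The OB2-like gate was made of *Ero1l*, *Egln3*, *Ndrg1*, *Bnip3*, *Slc2a1*, *Fam162a* and *Slc16a3*. It held no *Bglap* gene, so it does not select for maturity. The summed OB1 markers had a median of 20.8 UMIs per 10000 in OB2-like and 27.4 in OBP-like cells. In Ocy-like and OB1-like cells it was 58.9 and 241.5. The mesenchymal classes are ranges of marker scores that grade into each other. In many stromal cells the lead of the highest score over the next lay within 0.1 of the required margin of 0.25. Counted by their highest score, whether they passed the gate or not, these were 1803 LMP, 1669 OBP, 2054 OB1, 1737 OB2, 1492 Ocy and 788 MALP cells. The level of a gene is given as its unique molecular identifiers (UMIs, counted transcripts) per 10000 UMIs of a class in a pool, and a pool entered a class with at least 20 cells, which leaves 14 pools for OB2-like cells and 16 for the others. Total counts were 53990642 to 100777353 UMIs per pool in the first run, which is the run used. Its droplets are nearly the same as those of the second run, with 98.2% of barcodes shared (84.5% in pool 13), and no pair of pools shared more than 28 barcodes. Since counts were taken at 3′ ends, levels are compared between cell types for one gene and not between genes.

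The proximal promoters of 3 genes are shown because these genes had some of the largest differences between cell types, *Postn* and *Tnn* toward LMP-like cells and *Thbs4* toward osteoblast-like cells. Each run is the 100 bases before the annotated start in RefSeq (GRCm38.p6), 5′ to 3′ on the strand of the gene, with capitals for matches to either of the common promoter motifs, searched on both strands. The TATA box was sought by the letters TATAAA. The GC box, a site of Sp1 family factors, was sought by GGGCGG. The windows are chr3:54361007-54361106 (plus strand) for *Postn*, chr1:160153576-160153675 (minus strand) for *Tnn* and chr13:92794819-92794918 (minus strand) for *Thbs4*.
Postn: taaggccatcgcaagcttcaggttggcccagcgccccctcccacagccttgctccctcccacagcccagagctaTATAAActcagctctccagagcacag
Tnn: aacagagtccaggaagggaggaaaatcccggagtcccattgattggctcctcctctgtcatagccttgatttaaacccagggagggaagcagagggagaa
Thbs4: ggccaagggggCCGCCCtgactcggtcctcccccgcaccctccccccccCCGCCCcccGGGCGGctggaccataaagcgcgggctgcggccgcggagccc
TATAAA stood in this *Postn* window, 26 bases before the start, and not in the window of the other annotated *Postn* start (chr3:54359167-54359266), nor in the other 6 windows of the 6 genes that could be matched, against 5.56% of 32851 promoters of the same length. GGGCGG stood 3 times in the *Thbs4* window and once in that of *Thbs3*, against 24.7% of all promoters, and the *Tnn* window held neither. The genes lie on chromosome 2 (*Thbs1*), 17 (*Thbs2*), 3 (*Thbs3* and *Postn*), 13 (*Thbs4*), 4 (*Tnc*), 1 (*Tnn* and *Fn1*) and 8 (*Comp*), all protein coding, and none overlaps another gene on its own strand in GENCODE M21.

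**Figure D1:**
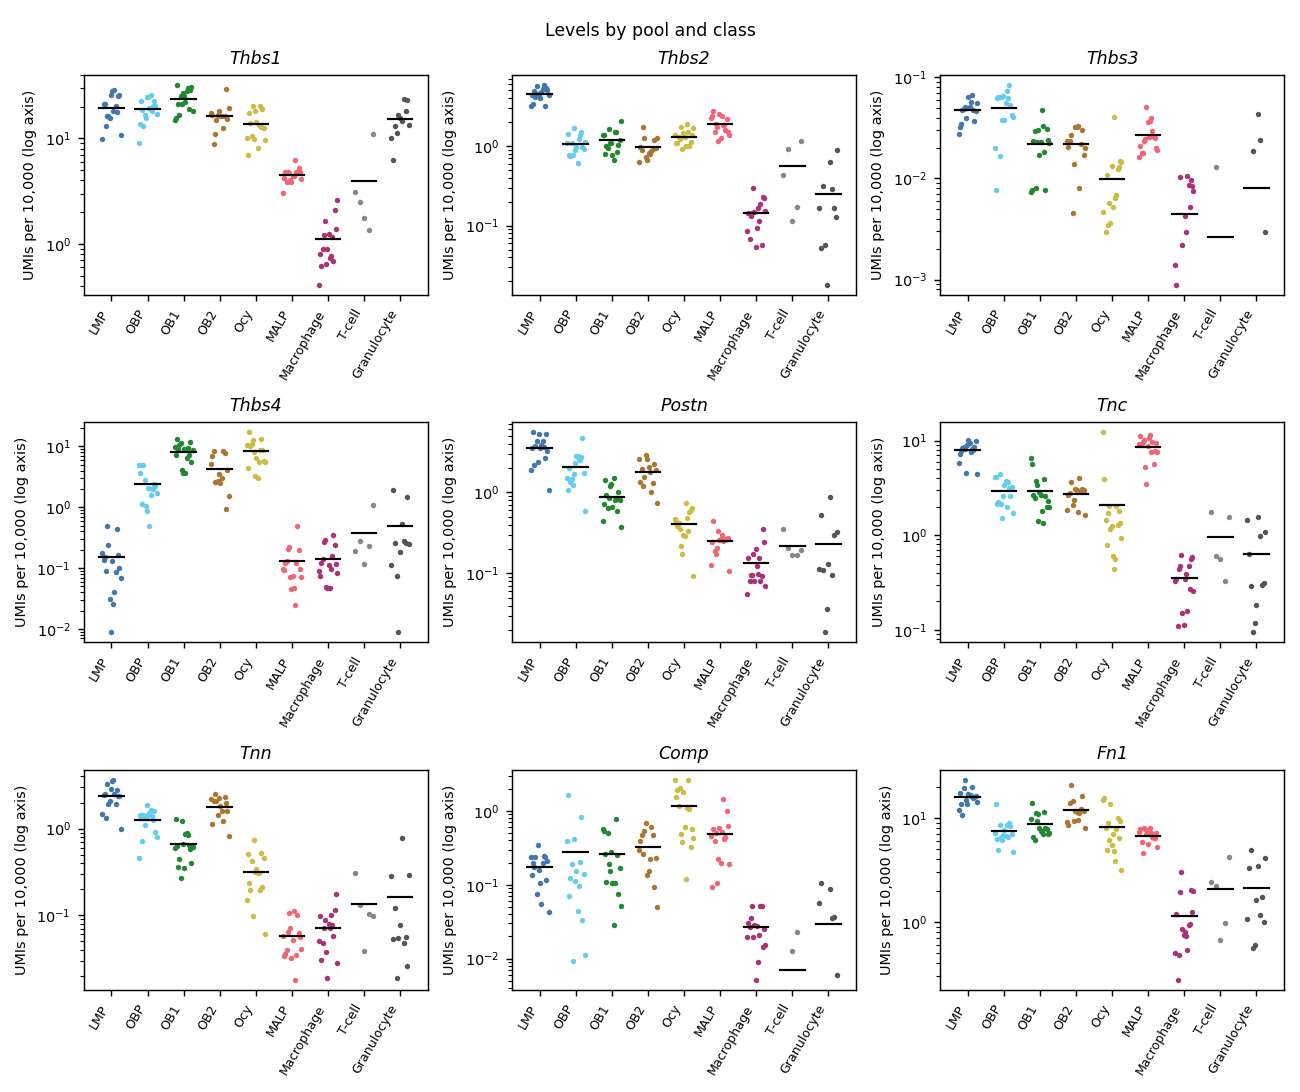
Levels of the 9 genes in 7 cell classes and in T-cell-like and granulocyte-like cells, as UMIs per 10000 on a log axis, with a point for each pool and a bar at the mean (16 pools, 14 for OB2-like, 5 for T-cell-like and 11 for granulocyte-like cells, with pools at 0 not drawn). *Thbs4* lies highest in OB1-like and Ocy-like cells (means of 8.16 and 8.37), *Postn*, *Tnn*, *Thbs2* and *Fn1* in LMP-like cells, and all 9 genes are low in macrophage-like cells.

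*Thbs1*, a trimeric thrombospondin that binds CD36 and CD47 and activates latent transforming growth factor beta, was abundant in every osteogenic class. In OB1-like cells its level ran from 14.9 (pool 1) through a median of 23.5 to 32.4 UMIs per 10000 (pool 3), with a mean of 23.5 ± 5.73 (SD, n = 16). LMP-like cells had 19.6 ± 5.95, OBP-like cells 18.9 ± 4.63, OB2-like cells 16.4 ± 4.64 (n = 14) and Ocy-like cells 13.6 ± 4.35, and these ranges overlap. MALP-like cells stood apart at 4.51 ± 0.712, since their highest pool (6.25) lay under the lowest LMP-like pool (9.91). How many of all genes lack overlap in this way was not counted, here or for the genes below. In the order of levels, LMP-like and OBP-like cells did not differ beyond their spread (adjusted p = 0.690, exact sign-flip permutation test over pools, two-sided, with Benjamini-Hochberg adjustment over 189 tests), and neither did OB2-like and Ocy-like cells (adjusted p = 0.228, same exact test). That family holds every pair of the 7 classes for each of the 9 genes, and 161 of its 189 pairs differed. The test was not run on other genes, so that count cannot be called particular to these 9. With cells over 6200 UMIs left out 113 did, 108 of them in common. Of the 161 pairs 5 changed sign there, and 0 of these differed under both settings.

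*Thbs2*, the close relative of *Thbs1* that limits collagen fibril size and the formation of vessels, was highest in LMP-like cells. There it ran from 3.21 (pool 1) through a median of 4.45 to 5.92 UMIs per 10000 (pool 12). Every LMP-like pool lay above every pool of the other 6 classes, but how many of all genes do so was not counted. MALP-like cells came next at 1.88 ± 0.479 (SD, n = 16). The osteogenic classes were close together, at 1.07 in OBP-like, 1.18 in OB1-like, 0.976 in OB2-like and 1.32 in Ocy-like cells. OB1-like and OBP-like cells, and OBP-like and OB2-like cells, did not differ (adjusted p = 0.326 and 0.564, same exact permutation test). LMP-like cells held 59.9% of the 135072 *Thbs2* UMIs of the 7 classes and 26.0% of the UMIs of all genes.

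*Thbs4* forms pentamers, as *Comp* and *Thbs3* do, and is known from tendon and muscle. Unlike *Thbs2*, it was low in LMP-like cells. LMP-like pools ran from 0.00884 (pool 8) through a median of 0.115 to 0.496 UMIs per 10000 (pool 5), OBP-like pools from 0.498 through 2.05 to 4.97, and OB1-like pools from 3.64 through 8.80 to 13.3. Thus no LMP-like pool reached the lowest OBP-like pool, although the nearest values lie side by side. Ocy-like cells had 8.37 ± 3.93 and OB1-like cells 8.16 ± 2.94 (SD, n = 16), which did not differ (adjusted p = 0.884, same exact permutation test), and OB2-like cells had 4.29 ± 2.57 (n = 14). OB1-like, OB2-like and Ocy-like cells held 39.1%, 22.8% and 30.3% of the 227463 *Thbs4* UMIs of the 7 classes, against 15.8%, 16.9% and 10.3% of all UMIs. In LMP-like, macrophage-like and MALP-like cells the means were 0.149, 0.143 and 0.133, and neighbours in this order did not differ (adjusted p = 0.669 and 0.200, same exact permutation test).

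*Comp*, cartilage oligomeric matrix protein, was highest in Ocy-like cells, at 1.18 ± 0.826 UMIs per 10000 (SD, n = 16), where it ran from 0.121 (pool 10) through a median of 1.08 to 2.65 (pool 12). Its pools spread widely in every osteogenic class. OBP-like cells had a mean of 0.279 ± 0.416 with a median of 0.132, because pool 2 stood at 1.63. MALP-like cells had 0.484 ± 0.344, OB2-like cells 0.329 ± 0.202 (n = 14), OB1-like cells 0.261 ± 0.221 and LMP-like cells 0.173 ± 0.0814. Of the neighbours in this order, MALP-like and OB2-like, OBP-like and OB1-like, and OB1-like and LMP-like cells did not differ (adjusted p = 0.129, 0.449 and 0.200, same exact permutation test). Ocy-like cells held 40.1% of the *Comp* UMIs of the 7 classes.

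*Thbs3*, known from growing bone, was close to the limit of detection, with 1919 UMIs in the 7 classes together. Its levels were 0.0494 ± 0.0216 UMIs per 10000 in OBP-like and 0.0474 ± 0.0111 in LMP-like cells (SD, n = 16), which did not differ (adjusted p = 0.879, same exact permutation test). They were lower in MALP-like (0.0269), OB1-like (0.0221), OB2-like (0.0220) and Ocy-like cells (0.00990), where pool 2 had none, and lowest in macrophage-like cells (0.00450), where 4 pools had none. From OBP-like to OB1-like cells *Thbs3* was lower in 16 of 16 pools, and *Thbs4*, of the same pentameric group, higher in 16 of 16.

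*Postn*, a cell adhesion protein that binds collagen, fibronectin and tenascin, was highest in LMP-like cells. It ran there from 1.06 (pool 18) through a median of 3.57 to 5.57 UMIs per 10000 (pool 3), with a mean of 3.53 ± 1.27 (SD, n = 16). OBP-like cells had 2.07 ± 0.965 and OB2-like cells 1.80 ± 0.642 (n = 14), which did not differ (adjusted p = 0.189, same exact permutation test), followed by OB1-like cells at 0.880 ± 0.327 and Ocy-like cells at 0.410 ± 0.177. Pool 18 was the lowest pool in all 6 mesenchymal classes. In MALP-like cells *Postn* was at 0.249 ± 0.0799, and their highest pool (0.443) lay under the lowest LMP-like pool.

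*Tnn*, tenascin-W, a tenascin of developing bone and of stroma, followed the same order as *Postn* over the osteogenic classes except that OB2-like cells came before OBP-like cells. It ran in LMP-like cells from 1.00 (pool 18) through a median of 2.43 to 3.68 UMIs per 10000 (pool 10), and in OB2-like cells from 0.831 (pool 18) through 1.90 to 2.53 (pool 6). The means were 2.38 ± 0.764 in LMP-like, 1.79 ± 0.501 in OB2-like, 1.26 ± 0.371 in OBP-like, 0.666 ± 0.296 in OB1-like and 0.317 ± 0.179 in Ocy-like cells. MALP-like cells (0.0573) were at the level of macrophage-like cells (0.0717) without a difference beyond the spread (adjusted p = 0.272, same exact permutation test).

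*Tnc*, tenascin-C, which loosens the hold of cells on fibronectin, differed from *Tnn* in MALP-like cells. These had 8.54 ± 2.22 UMIs per 10000 (SD, n = 16) and LMP-like cells 7.85 ± 1.69, which did not differ (adjusted p = 0.350, same exact permutation test). MALP-like pools ran from 3.45 (pool 7) through a median of 9.09 to 11.6 (pool 10) and LMP-like pools from 4.41 (pool 18) through 8.12 to 10.2 (pool 9). OB1-like, OBP-like and OB2-like cells had 2.95, 2.92 and 2.71, with no neighbouring pair that differed. In Ocy-like cells the mean of 2.10 ± 2.84 was set by pool 1, at 12.3, while the median was 1.31 and the lowest pool (pool 10) had 0.444.

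*Fn1*, fibronectin, was the most even of the 9 across the mesenchymal classes by the ratio of its highest to its lowest class mean. LMP-like cells had 16.1 ± 3.12 UMIs per 10000 (SD, n = 16), from 10.6 (pool 4) through a median of 16.1 to 23.5 (pool 6), and OB2-like cells 12.0 ± 3.44 (n = 14). OB1-like, Ocy-like, OBP-like and MALP-like cells followed with 8.70, 8.13, 7.45 and 6.79, and none of the neighbours among these 4 differed (adjusted p = 0.154, 0.866 and 0.189, same exact permutation test). The highest MALP-like pool, at 8.01, lay under the lowest LMP-like pool.

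The next comparisons ask how the genes differ between pairs of classes, namely along the steps from LMP-like to osteoblast-like and Ocy-like cells, between both osteoblast-like classes, and from LMP-like cells to the adipogenic and macrophage-like classes. For each, UMIs were summed by pool and class, and edgeR's quasi-likelihood test was fitted across all genes with the pool as block and adjusted by the Benjamini-Hochberg method over all genes tested. Differences are log2 fold changes ± SE. A large share of all genes passes in every comparison, and that share is given beside each count.

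In OBP-like against LMP-like cells, 3 of the 9 genes were higher, 5 were lower and 1 did not pass, where 35.1% of all 11438 genes tested were higher and 36.1% lower (4010 and 4127 genes, against 2259 and 6741 without the TMM scaling factors). *Thbs4* rose by 4.50 ± 0.23 (adjusted p = 1.82e-11), which as a ratio of mean levels is 16.1-fold, and it was higher in 16 of 16 pools. *Thbs2* fell by 1.86 ± 0.13 (adjusted p = 8.66e-10), *Tnc* by 1.19 ± 0.11 (adjusted p = 3.13e-08) and *Fn1* by 0.86 ± 0.08 (adjusted p = 1.13e-08), each lower in 16 of 16 pools. *Tnn* fell by 0.63 ± 0.10 (adjusted p = 1.21e-05) and *Postn* by 0.52 ± 0.14 (adjusted p = 0.00267), the latter with pool 13 going the other way. The rise of *Thbs1* (0.24 ± 0.08, adjusted p = 0.0162) depended on the processing. Its level was higher in 7 of 16 pools, the change was -0.04 without the TMM factors (adjusted p = 0.677) and 0.80 with classes from clusters, where the OBP-like cluster scored alike for OBP and OB1 markers (0.66 and 0.63), and it did not pass without the filter on low counts, without the block, in the joint fit, with at least 50 cells or with the stricter gate margin (0.07 to 0.20, adjusted p between 0.0513 and 0.559). *Thbs3* passed at 0.34 ± 0.13 (adjusted p = 0.0274) with 8 of 16 pools higher, and it did not pass without those factors (0.06), without the filter on low counts, in the joint fit, with DESeq2, without a gate margin or with clusters (0.10 to 0.29). *Comp* was at 0.28 ± 0.38 (adjusted p = 0.522), and without pools 1 and 2 at -0.14. With cells over 6200 UMIs left out, 5 of 7 genes passed, where 403 of all 2181 genes were higher and 393 lower. There *Thbs4* was at 2.47 and *Thbs2* at -0.89, and *Tnn* (-0.10, adjusted p = 0.771) and *Postn* (-0.16, adjusted p = 0.609) no longer passed.

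In OB1-like against OBP-like cells, 4 of the 9 were higher, 3 lower and 2 did not pass, where 25.7% of 10661 genes were higher and 28.0% lower (2744 and 2982 genes, against 1337 and 5807 without TMM). *Thbs4* rose further, by 2.12 ± 0.17 (adjusted p = 4.85e-08), in 16 of 16 pools, and *Thbs1* rose by 0.53 ± 0.06 (adjusted p = 3.19e-07), in 15 of 16 pools. *Fn1* rose by 0.43 ± 0.08 (adjusted p = 0.000204) in the fit and was higher in 11 of 16 pools. *Postn* fell by 0.98 ± 0.16 (adjusted p = 7.74e-05) and *Thbs3* by 0.91 ± 0.16 (adjusted p = 2.04e-05), each lower in 16 of 16 pools, and *Tnn* fell by 0.79 ± 0.16 (adjusted p = 0.000540), with pool 1 going the other way. *Thbs2* passed at 0.36 ± 0.12 (adjusted p = 0.0152), but not without the TMM factors (0.15) or without the pool as block (0.35 and adjusted p = 0.0566). *Tnc* (0.16 ± 0.11, adjusted p = 0.219) and *Comp* (0.51 ± 0.34, adjusted p = 0.225) did not pass. Both passed without the filter on low counts, *Tnc* with the stricter gate margin (0.48) and *Comp* in the second run (0.93). When cells with over 6200 UMIs were left out, which removes the deeper cells of all classes, 0 of the 7 genes that could still be tested passed, where 66 of all 2022 genes were higher and 30 lower.

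The study counts its OB1 and OB2 clusters as mature osteoblasts, but the OB2-like gate used here holds no *Bglap* gene. Against OB1-like cells, 4 of the 9 genes were higher in OB2-like cells, 3 lower and 2 did not pass, where 32.6% of 11077 genes were higher and 30.3% lower. *Tnn* was 1.51 ± 0.23 higher (adjusted p = 4.33e-05) and *Postn* 0.89 ± 0.13 (adjusted p = 1.38e-05), each in 14 of 14 pools. *Fn1* was 0.45 ± 0.09 higher (adjusted p = 0.000267), in 13 of 14 pools, and *Comp* 0.61 ± 0.19 (adjusted p = 0.0113), in 11 of 14 pools. *Thbs4*, *Thbs1* and *Thbs2* went the other way. *Thbs4* was at -1.09 ± 0.28 (adjusted p = 0.00383), in 13 of 14 pools, *Thbs1* had a difference of -0.69 ± 0.11 (adjusted p = 2.06e-05), with pools 14 and 18 as exceptions, and *Thbs2* of -0.30 ± 0.11 (adjusted p = 0.0248). *Tnc* (0.06 ± 0.09) and *Thbs3* (-0.15 ± 0.21) did not pass (adjusted p = 0.610 and 0.553). Without the pool as block, *Comp* (0.44, adjusted p = 0.359) and *Thbs2* (-0.32, adjusted p = 0.0713) no longer passed. *Comp* was also lost in the joint fit (0.47), and *Thbs2* without the filter on low counts (-0.31) and without a gate margin (-0.18). With cells over 6200 UMIs left out, 2 of 7 genes passed, where 231 of all 2323 genes were higher and 215 lower.

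**Figure D2:**
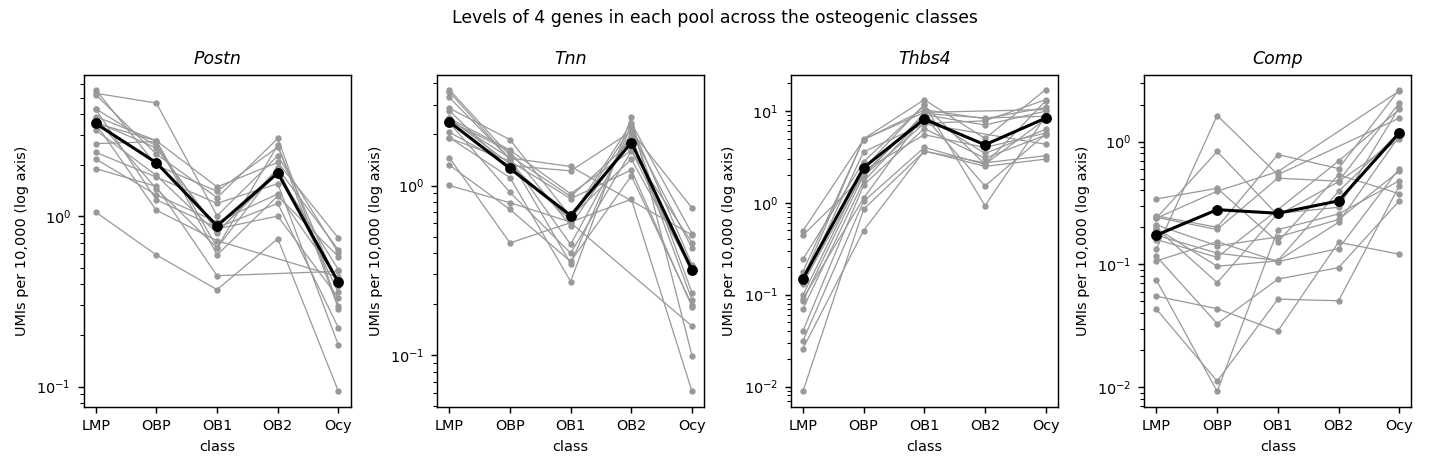
Levels of *Postn*, *Tnn*, *Thbs4* and *Comp* (UMIs per 10000, log axis) in LMP-like, OBP-like, OB1-like, OB2-like and Ocy-like cells, with a grey line for each of 16 pools (those of pools 1 and 2 skip OB2-like cells) and a black line for the mean. *Thbs4* climbs from LMP-like to OB1-like cells in all pools, while *Postn* and *Tnn* fall to OB1-like cells and lie higher again in OB2-like cells in 14 of 14 pools.

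In Ocy-like against OB1-like cells, 1 of the 8 genes that passed the filter on low counts was higher, 4 were lower and 3 did not pass, where 25.1% of 10183 genes were higher and 26.3% lower (2558 and 2674 genes, against 3675 and 1833 without TMM). *Comp* rose by 2.13 ± 0.16 (adjusted p = 8.39e-09), in 16 of 16 pools, and its mean level was 4.52 times as high. *Thbs1* fell by 0.91 ± 0.09 (adjusted p = 6.99e-08) in 16 of 16 pools, *Postn* by 1.21 ± 0.18 (adjusted p = 3.90e-05) and *Tnn* by 1.17 ± 0.21 (adjusted p = 0.000185) in 15 of 16. *Tnc* fell by 0.99 ± 0.18 (adjusted p = 0.000264), with pool 1 as the exception, and it did not pass without the pool as block (-0.62, adjusted p = 0.164). *Fn1* missed the threshold at -0.30 ± 0.13 (adjusted p = 0.0772), and passed without pool 13 (-0.34, adjusted p = 0.0418), without pools 1 and 2 (-0.38, adjusted p = 0.0345) and with DESeq2 (-0.31, adjusted p = 0.0230). *Thbs4* (-0.12 ± 0.13) and *Thbs2* (0.09 ± 0.07) did not pass (adjusted p = 0.460 and 0.290). Without the filter on low counts *Thbs4* and *Fn1* passed as lower (-0.13 and -0.30), with doublets kept *Fn1* did (-0.31), and without TMM *Thbs2* passed as higher (0.19). *Thbs3*, the gene left out by the filter, was lower in 15 of 16 pools, and when all genes were tested its change was -1.43 (adjusted p = 7.82e-08). With cells over 6200 UMIs left out, 1 of 6 genes passed, where 243 of all 2019 genes were higher and 248 lower.

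The study places its MALP cluster at the end of an adipogenic path of differentiation, which it does not treat as a lineage, and descent was not tested here. Against LMP-like cells, 1 of the 9 was higher, 6 were lower and 2 did not pass, where 39.4% of 11696 genes were higher and 35.6% lower (4611 and 4158 genes, against 6562 and 2536 without TMM). *Tnn* fell by 5.49 ± 0.16 (adjusted p = 8.77e-16) and *Postn* by 4.01 ± 0.11 (adjusted p = 2.53e-16), and for both the pools of the classes did not overlap. *Thbs1* fell by 2.28 ± 0.10 (adjusted p = 4.70e-14), *Thbs2* by 1.51 ± 0.12 (adjusted p = 1.24e-09) and *Fn1* by 1.45 ± 0.05 (adjusted p = 2.26e-16), again with no overlap, and *Thbs3* by 1.05 ± 0.13 (adjusted p = 1.26e-07). How many of all genes had no overlap was not counted, so the lack of overlap cannot be called particular to these genes. *Comp* rose by 1.16 ± 0.28 (adjusted p = 0.00130), in 14 of 16 pools. *Tnc* was at -0.11 ± 0.10 (adjusted p = 0.325) and *Thbs4* at -0.30 ± 0.17 (adjusted p = 0.118). The latter passed in the second run (-0.36), without a gate margin (-0.47), with cells over 6200 UMIs left out (-1.38) and with classes from clusters (-2.21).

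In macrophage-like against LMP-like cells, 0 of the 9 were higher, 8 were lower and 1 did not pass, where 40.4% of 11704 genes were higher and 45.3% lower. The fitted falls ran from 2.59 ± 0.17 for *Comp* to 5.04 ± 0.17 for *Tnn* (adjusted p = 1.21e-12 and 3.36e-16). *Thbs2* fell by 4.97 ± 0.12, *Postn* by 4.68 ± 0.14, *Tnc* by 4.50 ± 0.19, *Thbs1* by 4.17 ± 0.22, *Fn1* by 3.94 ± 0.20 and *Thbs3* by 3.55 ± 0.27, and each of these 6 was lower in 16 of 16 pools. *Thbs4*, which was low in both classes, was at 0.17 ± 0.19 (adjusted p = 0.404). It passed as higher with a stricter gate margin (0.42, adjusted p = 0.0191). Its direction turned with cells over 6200 UMIs left out, where doublets were kept as well (-2.01), and with classes from clusters (-1.17).

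The low values raise the question of which are above the RNA that floats free in the droplets. Each cell was thinned to 2000 UMIs, shallower cells were left out, and the share of cells with at least 1 UMI of a gene was compared with that in T-cell-like cells (379 cells in all pools) and granulocyte-like cells (1445 cells), which are blood cells that should hold little of these genes. The gates of these blood cells set no upper limit on stromal markers. That of macrophage-like cells did (under 60 UMIs per 10000). The part of droplets mixed with stromal cells in the blood cell shares was not tested. Shares are means over the pools with at least 20 such cells, which were 4 pools for T-cell-like and 11 for granulocyte-like cells. The gated T-cell-like cells had a median of 36.1 UMIs per 10000 of T-cell markers and 0 of B-cell markers, but the cluster that took the same name held more UMIs of B-cell than of T-cell markers (712.6 against 16.4). *Thbs4* was found in 52.0% of OB1-like, 48.8% of Ocy-like, 32.3% of OB2-like and 24.5% of OBP-like cells. It was found in 4.31% of LMP-like, 2.93% of MALP-like and 2.70% of macrophage-like cells, which is no more than in granulocyte-like cells (4.62%), with 3.38% in T-cell-like cells. The MALP-like and macrophage-like means thus lie under both blood cell classes and the LMP-like mean between them, while the LMP-like share ran from 0.0% to 22.7% over pools, and the part of free RNA in them was not tested. *Tnn* in MALP-like cells (1.22%) lay under the granulocyte-like share (3.07%), against 26.9% in LMP-like cells, and *Postn* in MALP-like cells (4.34%) lay near it (3.75%), against 31.2%. *Comp* was found in 12.0% of Ocy-like and 5.03% of MALP-like cells, against 0.654% of granulocyte-like cells. *Thbs2* (46.0%), *Tnc* (60.6%) and *Fn1* (82.8%) were common in LMP-like cells, against 3.72%, 7.77% and 15.7% in granulocyte-like cells. Before thinning, *Thbs4* was found in 76.2% of OB1-like and 14.2% of LMP-like cells, at median depths of 19022.5 and 18707 UMIs. In granulocyte-like cells it was found in 8.32%, at a median depth of 3466 UMIs. The order of LMP-like and granulocyte-like cells thus depends on thinning, and neither order shows whether *Thbs4* in LMP-like cells is free RNA.

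**Figure D3:**
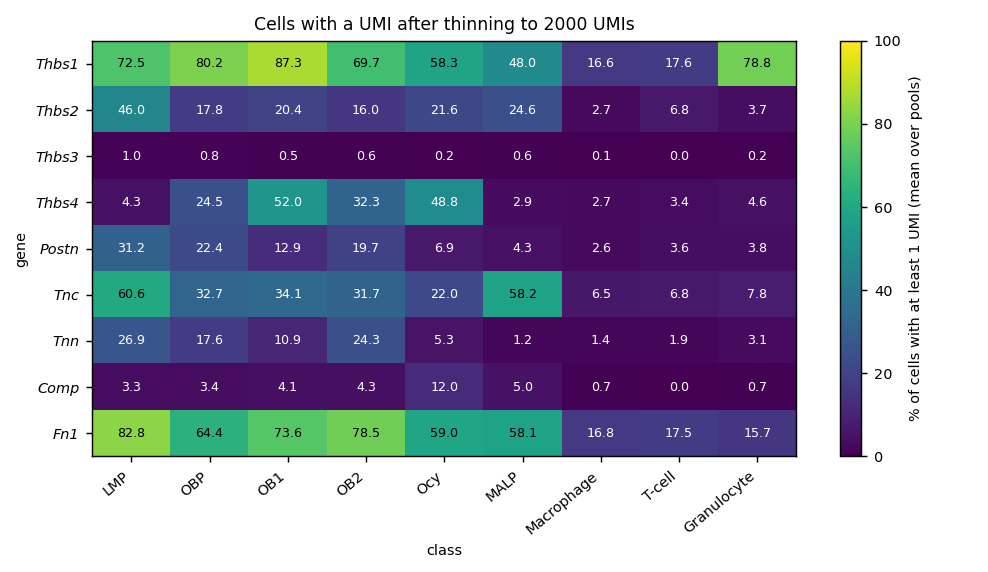
Heat map of the share of cells (%) with at least 1 UMI of each gene (rows) after thinning every cell to 2000 UMIs, with the mean over pools in colour and as a number, in the 7 classes and in T-cell-like and granulocyte-like cells (columns). *Thbs1* is found in 78.8% of granulocyte-like cells but 17.6% of T-cell-like cells, and *Thbs4* in LMP-like cells (4.31%) lies within the 2 blood cell classes.

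*Thbs1* was the exception among the blood cells, with a level of 15.1 ± 5.28 UMIs per 10000 in granulocyte-like cells (SD, n = 11), from 6.2 (pool 5) through a median of 14.6 to 23.8 (pool 12). To set macrophage-like cells against free RNA, each gene was counted per 1000 UMIs of *Col1a1* and *Col1a2*, the chains of type I collagen, taken here as a marker of RNA from other cells. That these UMIs are free RNA was not tested. *Col1a2* is also one of the stromal markers whose sum was limited in macrophage-like cells but not in the blood cells. The effect of that limit on the ratios was not tested. *Thbs1* stood at 59.8 in macrophage-like and 549.5 in granulocyte-like cells, lower in the former in 11 of 11 pools (mean log2 difference -2.81, adjusted p = 0.00879, exact sign-flip permutation test over pools, two-sided, where 0.000977 is the smallest p possible). Granulocyte-like cells themselves held 15.1 UMIs per 10000 of *Thbs1*, against 1.11 in macrophage-like cells. They are thus no reference for its free RNA, and this difference does not bear on that question. *Comp* was higher in macrophage-like cells, at 1.32 against 0.531 in 10 of 11 pools (log2 difference 1.85, adjusted p = 0.0395, same exact permutation test), but rests on 88 and 18 UMIs. Granulocyte-like cells had no *Comp* UMI in 5 of the 11 pools, where the log2 difference depends on the 0.1 added to each ratio. The other 7 genes did not pass, and *Fn1*, a known product of macrophages, was at 59.5 against 59.4. Against T-cell-like cells, which reached 20 cells in 5 pools, no gene could pass, since the smallest p of the exact test is 0.0625. *Fn1* was there at 82.9 against 33.0, higher in 5 of 5 pools.

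Pools hold different mice and are separate libraries, and the runs sequenced the same library again. A difference between runs thus covers sequencing only, and not culture, capture or library preparation, which are part of the spread between pools. In LMP-like cells the SD of log2(UMIs per 10000 + 0.1) between pools was 0.47 for *Thbs1*, 0.60 for *Postn*, 0.49 for *Tnn*, 0.35 for *Tnc* and 0.28 for *Fn1*. The mean absolute difference between runs, which is another measure than the SD, was 0.03, 0.04, 0.03, 0.03 and 0.02 in the same order. The widest spread in LMP-like cells was that of *Thbs4* (0.70), with a highest pool 56.1 times the lowest. That ratio rests on pool 8, at 0.00884 UMIs per 10000, where the next lowest (pool 10) had 0.0258. After thinning, *Thbs4* was found in 4.31% of LMP-like and 4.62% of granulocyte-like cells. Before thinning the shares were 14.2% and 8.32%, at median depths of 18707 and 3466 UMIs. Since depth differed between these classes, the shares do not show whether *Thbs4* in LMP-like cells is free RNA, which was not tested.

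Across the 16 pools, the LMP-like levels of *Thbs1*, *Postn*, *Tnc* and *Tnn* were correlated with each other. All 6 pairs of these 4 genes, and none of the other 30 of the 36 pairs of members, passed for Pearson's r (permutation test with 100000 resamples, two-sided, Benjamini-Hochberg adjustment). The highest was *Thbs1* with *Postn* (r = 0.77, permutation p = 0.00045, adjusted p = 0.0162, and Spearman's rho = 0.64, permutation p = 0.00956, adjusted p = 0.292), followed by *Postn* with *Tnn* (r = 0.72, permutation p = 0.00193, adjusted p = 0.0313, and rho = 0.54, adjusted p = 0.3005). *Thbs1* with *Tnn* and *Postn* with *Tnc* had r = 0.70 each (permutation adjusted p = 0.0313 and 0.0345), *Tnc* with *Tnn* r = 0.67 and *Thbs1* with *Tnc* r = 0.65 (permutation adjusted p = 0.0345 for both). None of the 36 rank correlations passed. The relations rest in large part on the outermost pools, which were pools 1 and 18, or 7 and 18 for *Tnc* with *Tnn*. Without them r fell to 0.58 for *Thbs1* with *Postn* (permutation p = 0.0313), 0.59 for *Tnc* with *Tnn* (permutation p = 0.0249) and 0.36 to 0.45 for the other 4 pairs, with permutation p between 0.105 and 0.217, all before adjustment. Depth per LMP-like cell differed between pools, from a mean of 14760 UMIs (pool 13) to 26530 (pool 7). Its correlation with the level passed for none of the 9 genes, and the highest was *Postn* (r = 0.58, rho = 0.57, permutation p = 0.0175 and 0.0241, adjusted p for r = 0.157). Without the 2 pools farthest from the median depth, r with depth was 0.88 for *Postn*, 0.71 for *Thbs1*, 0.67 for *Tnn* and 0.62 for *Tnc*, and the part of depth in the relations between the genes was not tested.

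**Figure D4:**
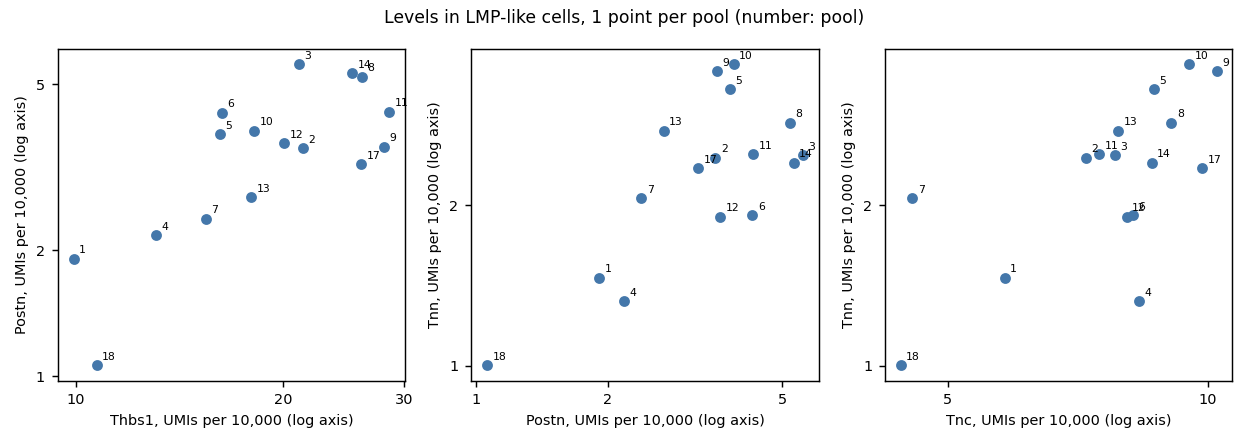
Levels in LMP-like cells (UMIs per 10000, log axes) with a point for each of 16 pools, for *Thbs1* with *Postn*, *Postn* with *Tnn* and *Tnc* with *Tnn*. The number beside a point is the pool. Pools 1 and 18 lie at the low end, and without the outermost pools r drops from 0.77 to 0.58 for *Thbs1* with *Postn*.

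The receptors that read these proteins were taken as a list of 16 genes. In OBP-like against LMP-like cells 3 of the 14 tested were higher and 8 lower, where 35.1% and 36.1% of all genes were, with a median change of -0.18 against -0.01 over all genes. *Itga4*, an integrin chain that binds fibronectin, rose by 3.08 ± 0.19 (adjusted p = 1.19e-13), from a very low level of 0.00680 to 0.0473 UMIs per 10000, and *Cacna2d1* rose by 0.51 ± 0.06 (adjusted p = 1.23e-08). *Itga9*, an integrin chain for tenascin-C, fell by 2.54 ± 0.11 (adjusted p = 1.25e-16), from 0.236 to 0.0328, and the syndecan *Sdc1* fell by 1.19 ± 0.06 (adjusted p = 3.74e-16). In OB1-like against OBP-like cells 7 were higher and 1 lower of 14, where 25.7% and 28.0% of all genes were, and without TMM 3 were higher and 3 lower. The 2 largest rises were those of the syndecan *Sdc4* (0.90 ± 0.08, adjusted p = 7.67e-09) and the endocytic receptor *Lrp1* (0.52 ± 0.07, adjusted p = 2.72e-06), and *Itga5*, a chain of the fibronectin receptor, fell by 0.44 ± 0.09 (adjusted p = 0.000147). In OB2-like against OB1-like cells 3 were higher and 2 lower of 14 (32.6% and 30.3% of all genes, and 4 and 1 receptors without TMM), and *Itgb3*, a chain of the vitronectin receptor that also binds periostin, was 1.73 ± 0.20 higher (adjusted p = 2.34e-07). *Cd47* was 0.67 ± 0.06 higher (adjusted p = 1.35e-08), and *Sdc4* (-0.33 ± 0.10, adjusted p = 0.00779) and *Itgav* (-0.16 ± 0.05, adjusted p = 0.00688) were lower. In Ocy-like against OB1-like cells 3 were higher and 4 lower of 12 (25.1% and 26.3% of all genes, and 3 and 2 receptors without TMM), with *Itgb3* at 1.63 ± 0.16 (adjusted p = 4.09e-09) and *Cacna2d1*, a calcium channel subunit that binds thrombospondins, at 1.23 ± 0.07 (adjusted p = 3.00e-12). *Sdc1* fell by 0.74 ± 0.09 (adjusted p = 2.30e-07) and *Itgb5* fell by 0.29 ± 0.08 (adjusted p = 0.00668).

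In MALP-like against LMP-like cells 6 receptors were higher and 5 lower of 14 (39.4% and 35.6% of all genes, and 8 and 4 receptors without TMM). *Cd36*, the thrombospondin receptor that also takes up fatty acids, rose by 4.01 ± 0.23 (adjusted p = 4.93e-11), from 0.0402 to 0.734 UMIs per 10000, and *Itga8* by 2.62 ± 0.23 (adjusted p = 1.09e-09), while *Itgb8* fell by 3.39 ± 0.22 (adjusted p = 6.39e-12) and *Itga5* by 1.39 ± 0.09 (adjusted p = 1.89e-11). In macrophage-like against LMP-like cells 7 were higher and 5 lower of 14, where 40.4% and 45.3% of all genes were. *Cd36* rose by 7.39 ± 0.17 (adjusted p = 5.70e-19), to 6.07 ± 2.85 UMIs per 10000, and *Itga4* by 5.85 ± 0.14 (adjusted p = 1.03e-20). *Cacna2d1* fell by 4.21 ± 0.12 (adjusted p = 2.23e-19) and *Itgb8* fell by 3.78 ± 0.33 (adjusted p = 2.05e-10).

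A second list held 25 relatives and matrix partners, such as fibulins, fibrillins, lysyl oxidases and *Sparc*. Of these, 6 were higher and 10 lower of 19 in OBP-like against LMP-like cells, where 35.1% and 36.1% of all genes were, with *Sparc*, a collagen-binding protein of bone, at 2.02 ± 0.10 (adjusted p = 4.31e-12) and a level of 154.2 against 47.0 UMIs per 10000. The lysyl oxidase relative *Loxl4* rose by 3.13 ± 0.19 (adjusted p = 5.47e-11), and the fibulins *Fbln2* and *Fbln5* fell by 2.80 ± 0.10 and 2.68 ± 0.08 (adjusted p = 1.55e-15 and 3.79e-19). In OB1-like against OBP-like cells 9 were higher and 2 lower of 16, where 25.7% and 28.0% of all genes were, and without TMM 7 were higher and 5 lower. The 2 largest rises were those of the transglutaminase *Tgm2* (2.00 ± 0.11, adjusted p = 1.36e-13) and the procollagen protease *Bmp1* (0.90 ± 0.06, adjusted p = 1.23e-12). *Fbn1*, fibrillin-1, and *Loxl1* fell by 0.32 ± 0.10 and 0.30 ± 0.08 (adjusted p = 0.00837 and 0.00139). In OB2-like against OB1-like cells 11 were higher and 4 lower of 18, where 32.6% and 30.3% of all genes were. *Fbln2* was 1.62 ± 0.17 higher (adjusted p = 6.09e-07) and *Tgfbi*, the nearest relative of *Postn*, 2.01 ± 0.50 higher (adjusted p = 0.00242), while *Bmp1* (-1.01 ± 0.09, adjusted p = 1.21e-08) and *Tgm2* (-1.22 ± 0.17, adjusted p = 4.49e-06) were lower. The level of *Tgfbi* was low, with a mean of 0.0123 UMIs per 10000 in OB1-like cells. In OB2-like cells its mean was 0.0542 and its median 0.0302, with pool 6 at 0.326.

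In Ocy-like against OB1-like cells 1 of these partners was higher and 10 were lower of 16, where 25.1% and 26.3% of all genes were. The one was *Loxl4* (1.56 ± 0.06, adjusted p = 7.18e-17), and *Fbln5* fell by 1.61 ± 0.14 (adjusted p = 8.64e-09) and *Loxl1* by 1.30 ± 0.13 (adjusted p = 4.33e-09). In MALP-like against LMP-like cells 6 were higher and 13 lower of 20 (39.4% and 35.6% of all genes, and 6 and 9 partners without TMM). *Smoc1*, a calcium-binding relative of *Sparc*, rose by 4.23 ± 0.14 (adjusted p = 4.30e-15) and *Tgm2* by 1.87 ± 0.11 (adjusted p = 1.91e-12). *Fbln2* fell by 3.39 ± 0.10 (adjusted p = 2.56e-16) and *Smoc2*, the paralog of *Smoc1*, fell by 2.91 ± 0.18 (adjusted p = 2.05e-12). In macrophage-like against LMP-like cells 2 were higher and 17 lower of 19, where 40.4% and 45.3% of all genes were, with a median of -4.06 against -0.08 over all genes. The 2 were *Tgm2* (5.65 ± 0.15, adjusted p = 1.53e-18), at 3.18 ± 0.557 UMIs per 10000, and *Tgfbi* (5.34 ± 0.23, adjusted p = 9.91e-14), at 1.40 ± 0.803. *Fbln1* fell by 5.08 ± 0.30 (adjusted p = 2.16e-13) and *Fbln2* fell by 5.04 ± 0.14 (adjusted p = 3.90e-19).

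Last, the genes with the most similar pattern were sought among 4595 genes, by Pearson's r of log2(CPM + 1) over the 112 sums of 7 classes and 16 pools, which include the OB2-like sums of pools 1 and 2 with 5 and 3 cells. This is a description, since the sums of a pool share its mice and library and those of a class share its markers. *Thbs4* was closest to *Col13a1* (r = 0.96), *Lipc* (0.95) and *Col22a1* (0.94), 2 of them collagens of the surface of cells and tissues. *Thbs1* was closest to *Serpinf1* (0.93), which encodes a secreted factor of bone matrix, to *P3h4* (0.93) and to *Lox* (0.93), both of which act on collagen. *Thbs2* was closest to *Cald1* (0.92), *Parva* (0.91) and *Cnn3* (0.91), genes of the contractile and adhesion apparatus, and *Fn1* to *Enah* (0.92), *Fads3* (0.91) and *Ryk* (0.90). *Tnc* was closest to *Olfml2b* (0.94), *Ehd3* (0.93) and *Rbms3* (0.93), *Postn* to *Itgbl1* (0.87), *Fmod* (0.86) and *Rpl7* (0.86), and *Tnn* to *Fmod* (0.91), fibromodulin, then *Rpl13a* (0.86) and *Shmt2* (0.86). *Comp* and *Thbs3* had no gene over 0.8, with *Cst3* (0.77), *Smad7* (0.73) and *Plekhh2* (0.72) for the former and *Omd* (0.79), *Col3a1* (0.77) and *Lurap1l* (0.77) for the latter. Among the 9 themselves, *Postn* and *Tnn* were most alike (0.90) and *Thbs4* and *Tnc* least (-0.11).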

How the data were processed

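scRNA-seq UMI counts of BMSC-OBs from 16 pools were analysed. Reads had been mapped to mm10 and counted by the authors in Cell Ranger 5.0.0, who deposited a matrix of raw counts per gene and barcode for each pool and run, with 3460 to 9429 barcodes per pool in the first run, before the limits on cells given below. Both runs of a pool hold the same droplets, so the first run was used and the second served as an alternative. The totals per pool, in the report, set the precision of the levels.

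The study gives its limits of 400 and 6200 in reads. They were taken here as detected genes, with UMIs as an alternative, and cells were kept within them with at most 10% mitochondrial, 20% *Rpl* and 15% *Rps* UMIs, which left 88909 of 107853. The 5003 droplets with the highest scores against simulated doublets in 30 principal components were removed, at 0.8% per 1000 barcodes. Lineages were gated by summed marker levels in cells with at least 1000 UMIs, and mesenchymal classes by mean marker scores, with a score of at least 0.25 and a margin of 0.25 over the next class. 33851 kept cells passed no gate. In the alternative with limits on UMIs, the limits of 400 and 6200 on detected genes were not used and called doublets were not removed.

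Counts were summed by pool and class and tested with edgeR 4.0.16 in R 4.3.3 (filterByExpr, TMM, robust quasi-likelihood, pool as block). Classes of a pool come from the same mice and droplets, which makes them paired, and deviations from the class means correlated within a pool (medians of 0.28 to 0.49, lowest pair 0.097) but not between pools (medians of -0.03 to -0.02). Pools are the replicates. On simulated data with 200 genes changed by a log2 fold change of 1, the test recovered 96.0% to 99.0% of them over the 6 comparisons, and 2.54% to 5.37% of its calls were false. In the data 51.4% to 85.7% of all genes passed, a far larger share than was changed in the simulation. The rates of recovered and false calls were not tested at such shares, so they need not hold for the reported calls. Levels were tested on log2(UMIs per 10000 + 0.1) in Python 3.11.15 with SciPy 1.17.1. Alternatives were the second run, DESeq2 1.42.0, no TMM, no filter on genes, no block, 1 joint fit, other gate margins, clusters in place of gates, doublets kept, the limits of 400 and 6200 on UMIs, at least 50 cells, no pool 13, and, added after seeing the data, no pools 1 and 2.

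Named were all 9 genes, from either list up to 2 genes in each direction with the largest change among those that passed, and the 3 most alike genes of each of the 9. Genes, lists, markers and tests were chosen with earlier results of these data known.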

Additional observations from a re-analysis of the deposited data

Results flagged for a closer look

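Of the groups of 4 to 10 pools, only the T-cell-like cells (5 pools) could be searched for a value far from the others, in 9 genes, of which chance alone would mark about 1 in 20. 4 values stood out. In UMIs per 10000, *Thbs1* was at 11.1 in pool 18, where the next pool had 3.11. *Thbs4* was at 1.07 in the same pool, where the next had 0.274. Osteoblast genes were highest in the same T-cell-like cells of pool 18, with *Col1a1* at 206.3 (median of the 5 pools 34.6), *Col1a2* at 141.3 (24.1), *Ibsp* at 233.1 (31.8) and *Sparc* at 86.9 (13.5), and their part in these values was not tested. *Postn* was at 0.350 in pool 5, where the next had 0.209. *Thbs3* was at 0.0131 in pool 6, from a single UMI, and at 0 in the others. No comparison but that with free RNA uses these cells.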

How the results depend on the processing

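Over 14 alternatives, 637 recomputed fold changes of the 9 genes kept their direction and their side of the threshold, 32 no longer passed, 16 now passed and 18 turned. The counts of genes that passed moved most with cells over 6200 UMIs left out, where called doublets were not removed and 37850 cells were kept. The counts there were 5 in OBP-like against LMP-like, 0 in OB1-like against OBP-like, 2 in OB2-like against OB1-like and 1 in Ocy-like against OB1-like cells. Fewer cells, pools and genes could be tested, and fewer of all genes passed (36.5%, 4.75%, 19.2% and 24.3% in the same order). For the 2 lists together that setting gave 60 calls of 100. Without the filter on low counts 8 of 9 passed in Ocy-like against OB1-like cells, as 27.4% of all 21139 genes did. With doublets kept, 7 of 9 genes differed between macrophage-like and granulocyte-like cells per collagen UMI, against 2, and the cause was not tested. Of the turns, 2 were of changes that had passed, *Thbs1* in OBP-like against LMP-like cells without TMM (-0.0355), *Thbs2* in OB1-like against OBP-like cells with the limit on UMIs (-0.0915). *Thbs4* in macrophage-like against LMP-like cells turned and passed with that limit (-2.01) and with clusters (-1.17). The others passed on neither side: *Thbs4* in that comparison without the pool as block (-0.00538), without a gate margin (-0.0949) and with doublets kept (-0.398), *Comp* in OBP-like against LMP-like cells without TMM (-0.00139), without pools 1 and 2 (-0.144), with DESeq2 (-0.0587), in the second run (-0.108) and with clusters (-0.165), *Tnc* in OB1-like against OBP-like cells without TMM (-0.0488), in OB2-like against OB1-like cells with the stricter margin (-0.0766) and the limit on UMIs (-0.274) and in MALP-like against LMP-like cells without TMM (0.102) and with clusters (0.155), and *Thbs2* in Ocy-like against OB1-like cells with the limit on UMIs (-0.159). Clusters gave no OB1-like class, so its 3 comparisons were not run with them. Without the pool as block, 5 of 53 changes no longer passed, among them *Thbs1* in OBP-like against LMP-like cells (0.20, adjusted p = 0.257), and the others stand in the report. Without TMM the median of all genes moved from -0.01 to -0.28 in OBP-like against LMP-like, from -0.02 to -0.24 in OB1-like against OBP-like and from 0.03 to 0.24 in MALP-like against LMP-like cells. Of the 189 orders of levels, 159 differed with a pseudocount of 1, 160 in the second run and 154 after thinning. With cells thinned to 1000 UMIs, 34 of 63 shares moved by more than the spread between pools, among them *Thbs4* in OB1-like cells (38.9%, from 52.0%), so that shares depend on the depth chosen. Depth also limits *Thbs3* in all classes.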
